A study of Mus musculus with 2 samples.

Results

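The aminoacyl-tRNA synthetases are the enzymes that attach each amino acid to its tRNA, and 36 of their genes were followed in the nascent transcription of mouse myoblasts. The members were chosen by gene symbol from a fixed list and not by their activity, though with earlier results of these data known. They account for 36 of the 20128 gene symbols and 41 of the 24165 RefSeq entries of the deposited table. Of the 36 genes, 18 encode cytosolic enzymes, 16 encode mitochondrial enzymes (symbols ending in 2), and 2 (Gars and Kars) supply both compartments.

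The cells were C2C12, an established mouse line of myoblasts, which are the precursors that fuse into muscle fibres. Both libraries came from untreated C2C12 cells grown to a confluency of 80% in high glucose medium with serum, so there was no contrast of conditions. In global run-on sequencing (GRO-seq), engaged RNA polymerases extend their transcripts in isolated nuclei with bromouridine, and the labelled RNA is captured with an antibody and sequenced. The 2 replicate libraries were pooled by the authors into a single activity per RefSeq entry, in RPKmM: sense-strand reads from 1 kb past the transcription start site to the transcript end, per kilobase of mappable bases and scaled to the number of reads. The unit is per length, so levels may be set side by side between genes. Since there is no value per library, no standard deviation and no test between genes could be computed, and whether neighbours in the order of activities differ beyond the spread between libraries is not known. The sequencing depth per library is unknown from the table. Deposited values carry 2 decimals, so each may be off by 0.005 RPKmM from rounding. As a check of the cell type, 6 of 6 myoblast markers were active, from 2.39 RPKmM for Myod1 to 146.13 for Vim. Markers of differentiated muscle were active for 6 of 6 genes, from 0.14 for Myh4 to 6.85 for Acta1. Of these, 3 of 6 lay above the median of active symbols (Acta1, Myh3 at 5.28 and Myog at 2.39, equal to Myod1), and Tnnt3 at 0.83, Ckm at 0.20 and Myh4 lay below it. In a bulk culture, the number of differentiated cells and the transcription per cell cannot be told apart. Of 6 markers of other cell types (Ptprc, Epcam, Pecam1, Alb, Sox2 and Cd3e), 3 were marked inactive and the remainder reached at most 0.23.

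Each synthetase recognises a particular amino acid and its tRNAs, and the charged tRNAs are then read by the ribosome. Mitochondria translate the few proteins of their own genome with a separate set of enzymes that are encoded in the nucleus and imported. The enzymes belong to a pair of unrelated structural families, class I and class II. Several cytosolic enzymes are held together with scaffold proteins in the multisynthetase complex. Many cytosolic synthetase genes are known targets of ATF4, the transcription factor that is induced when cells lack amino acids or fold proteins poorly. ATF4 binds, together with C/EBP proteins, a composite DNA element called CARE.

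CARE matches are shown first because they were found in promoters of cytosolic members and in no mitochondrial member whose promoter could be searched. A promoter here is the interval from 250 bases before to 50 bases from the annotated start site of the RefSeq table (build GRCm38.p6), which holds promoters for 27 of the 36 members. Mars was matched to its present symbol, Mars1, by accession. For Cars, Hars, Hars2, Lars, Nars, Pars2, Rars, Vars and Wars, no promoter was found in the set that was searched. Each line gives 30 bases in the direction of transcription around the match nearest the start site of the gene (further matches are not reported here), with the match to TGATGNAA, read on either strand, in capitals.
Aars: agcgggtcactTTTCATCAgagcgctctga
Gars: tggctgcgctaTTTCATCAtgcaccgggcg
Iars: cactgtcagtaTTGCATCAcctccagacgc
Tars: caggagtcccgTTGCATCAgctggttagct
Yars: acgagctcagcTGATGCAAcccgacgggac

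Counted from 1 at the annotated start site, with negative positions upstream, the capitals lie at 10 to 17 in Aars, -30 to -23 in Gars, 8 to 15 in Iars, -15 to -8 in Tars and 4 to 11 in Yars. The windows are chr8:111033840-111033869 for Aars (plus strand) and chr6:55037960-55037989 for Gars (plus strand). They are chr13:49682126-49682155 for Iars (plus strand), chr15:11399655-11399684 for Tars (minus strand) and chr4:129189895-129189924 for Yars (plus strand).

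All 36 synthetase genes were marked active, as were all 41 of their entries. In the whole table, 70.2% of entries and 68.7% of symbols were active. For every symbol, the median of its active entries was taken as its activity. Over the 13822 active symbols the median was 0.86 RPKmM, with quartiles of 0.21 and 1.96. For the 36 members the median was 1.52 (quartiles 0.83 and 3.73), and 26 of them lay above the median of active symbols, where 49.8% of active symbols lie. An activity of at least 1 RPKmM was found for 25 members, against 45.7% of active symbols. The span from the highest to the lowest member was 80.2-fold.

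**Figure D1:**
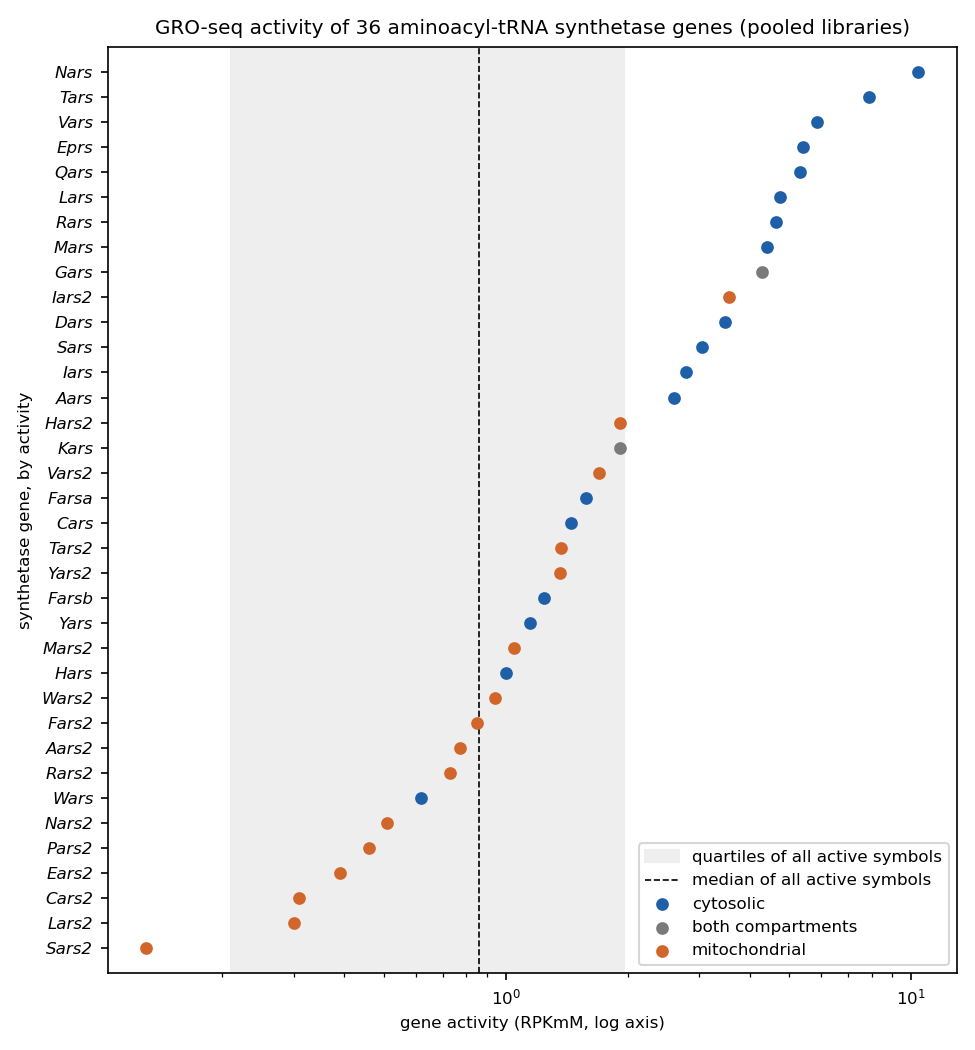
Gene activity of the 36 synthetase genes, from the most to the least active, on a log axis in RPKmM; each point is the value of the pooled libraries, so there are no error bars. The dashed line is the median of all active symbols at 0.86 and the grey band spans their quartiles; cytosolic members fill most of the upper rows and mitochondrial members most of the lower rows.

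The cytosolic genes were transcribed at higher levels than the mitochondrial genes. The 18 cytosolic members had a median of 3.27 RPKmM (quartiles 1.48 and 5.17, range 0.62 to 10.43) and the 16 mitochondrial members had 0.81 (quartiles 0.44 and 1.36, range 0.13 to 3.55), a ratio of 4.03. Of the cytosolic members 17 of 18 exceeded the median of active symbols, and of the mitochondrial members 7 of 16. When each cytosolic gene was set against each mitochondrial gene, the cytosolic gene had the higher activity in 252 of 288 combinations (87.5%). The ranges overlapped: 8 cytosolic genes lay above the highest mitochondrial gene, and 6 mitochondrial genes lay below the lowest cytosolic gene. Among the 12 most active members there was 1 mitochondrial gene, Iars2, and among the 12 least active there were 10. Members are separate genes and not replicates, so these are descriptions of the pooled libraries.

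**Figure D2:**
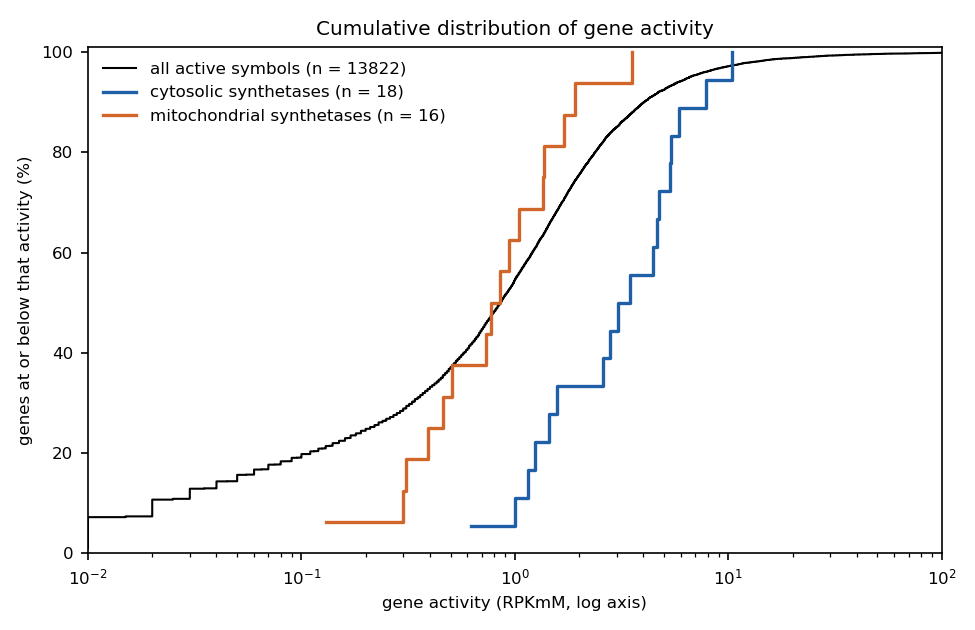
Cumulative share of genes (%) at or below a given activity (RPKmM, log axis) for all 13822 active symbols, the 18 cytosolic and the 16 mitochondrial synthetases. The cytosolic curve, with its median at 3.27, lies to the right of all active symbols over most of its length, while the mitochondrial curve, with its median at 0.81, crosses that of all active symbols near its middle.

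The most active member was Nars, the cytosolic asparaginyl-tRNA synthetase, at 10.43 RPKmM. It exceeded 97.3% of active symbols. The gene occupies chr18:64659319-64676211, minus strand (mm9, GENCODE vM1 annotation, as for the other gene positions). Tars, which charges threonine, followed at 7.88 (chr15:11313418-11329413, minus strand). Vars, for valine, had 5.86 (chr17:35137932-35153267, plus strand). These 3 genes were ahead of every other member, and none of them belongs to the multisynthetase complex.

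The enzymes of the multisynthetase complex filled a narrow range. Eprs, which joins the glutamyl and prolyl enzymes in a single protein, had 5.40 RPKmM, and Qars, for glutamine, had 5.31. Lars (leucine) had 4.75, Rars (arginine) 4.65 and Mars (methionine) 4.42. Dars (aspartate) had 3.48, Iars (isoleucine) 2.79 and Kars (lysine) 1.91. All 8 enzymes of the complex thus lay between 1.91 and 5.40, above the median of active symbols. Their median was 4.54 (quartiles 3.31 and 4.89). The 12 enzymes of the cytosol outside the complex, Gars included, spread from 0.62 to 10.43 with a median of 2.09, a ratio of 2.17. The scaffold proteins of the complex were within the range of its enzymes: Aimp1 had 2.58, Aimp2 had 3.15 and Eef1e1, also known as AIMP3, had 3.74.

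Outside the complex, the enzymes below Nars, Tars and Vars reached from 0.62 to 4.28 RPKmM. Gars, which charges glycine in both compartments, had 4.28. Sars (serine) had 3.05 and Aars (alanine) had 2.60. Farsa and Farsb encode the alpha and beta subunits of the phenylalanyl enzyme, which are joined in equal number in the protein. Their activities were 1.58 and 1.25, from genes on separate chromosomes (chr8:87380888-87393156, plus strand, and chr1:78414533-78485434, minus strand). Cars (cysteine) had 1.45, Yars (tyrosine) had 1.15 and Hars (histidine) had 1. These 5 genes all lay between the median and the upper quartile of active symbols. Wars, for tryptophan, was the least active cytosolic gene at 0.62 and the only cytosolic member below the median of active symbols. It exceeded 41.4% of them (chr12:110098240-110132384, minus strand).

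Among the mitochondrial genes, Iars2 (isoleucine) stood highest at 3.55 RPKmM, above 87.9% of active symbols. The next synthetase member beyond Iars2 (chr1:187108605-187153275, minus strand) is Eprs, which lies 33698 bases away and runs the other way (chr1:187186974-187252234, plus strand). Hars2 (histidine) had 1.91 and Vars2 (valine) 1.70. Tars2 (threonine) had 1.37, Yars2 (tyrosine) 1.36 and Mars2 (methionine) 1.05. With Wars2 (tryptophan) at 0.94, these made up the 7 mitochondrial genes above the median of active symbols. Just below that median were Fars2 (phenylalanine) at 0.85, Aars2 (alanine) at 0.77 and Rars2 (arginine) at 0.73. Nars2 (asparagine) had 0.51, Pars2 (proline) had 0.46 and Ears2 (glutamate) had 0.39. Cars2 (cysteine) had 0.31 and Lars2 (leucine) had 0.30. The least active member was Sars2 (serine) at 0.13, above 20.9% of active symbols (chr7:29527010-29538871, plus strand). These last 6 genes, from Nars2 to Sars2, were the members below Wars, the lowest cytosolic gene.

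Enzymes of the same amino acid were then compared within 17 pairs that cover 16 amino acids. The cytosolic gene was the more active in 13 pairs, for 12 amino acids, with a median ratio of 4.21 over all pairs, and 11 pairs had a ratio of at least 3. Rounding of the deposited values could turn the order in 0 of the 17 pairs. The serine pair was farthest apart, with 3.05 RPKmM for Sars against 0.13 for Sars2, a ratio of 23.5 that rounding places between 22.6 and 24.4. For asparagine the ratio was 20.5 (Nars and Nars2) and for leucine 15.8 (Lars and Lars2). Eprs exceeded Ears2 by 13.8-fold and Pars2 by 11.7-fold.

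The middle of the order held arginine at 6.37, threonine at 5.75, cysteine at 4.68, methionine at 4.21, valine at 3.45 and alanine at 3.38. The phenylalanine enzymes were closer, as Farsa was 1.86 and Farsb 1.46 times the activity of Fars2. For 4 amino acids the mitochondrial gene was the more active. Hars2 was 1.91 times as active as Hars, Wars2 1.52 times as active as Wars, Iars2 1.27 times as active as Iars and Yars2 1.18 times as active as Yars. The rank correlation between both members of a pair was -0.22 over the 17 pairs, all from the same pooled libraries, in which Eprs and Fars2 each occur in more than a single pair.

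**Figure D3:**
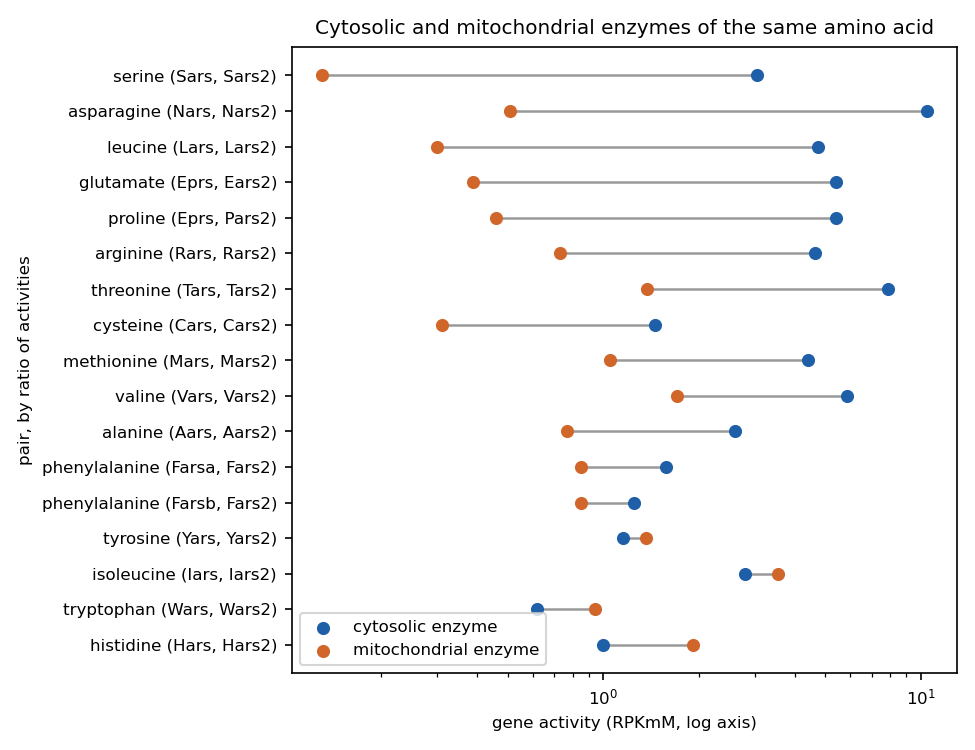
Gene activity (RPKmM, log axis) of the cytosolic and the mitochondrial enzyme of each amino acid, joined by a line, for 17 pairs ordered by the ratio of both. The cytosolic point lies to the right in the upper 13 pairs, from 23.5-fold for serine to 1.46-fold for Farsb and Fars2, and to the left for tyrosine, isoleucine, tryptophan and histidine.

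Other genes of the charging pathway are given from a list of accessory factors. In mitochondria, glutaminyl-tRNA is formed by charging with glutamate and then by an amidotransferase with the subunits Qrsl1, Gatb and Gatc. Qrsl1 had 1.49 RPKmM, Gatc 0.86 and Gatb 0.43. Mtfmt, which formylates the initiator methionyl-tRNA of mitochondria, had 0.49. Of these mitochondrial genes, Qrsl1 lay above the median of active symbols. Sepsecs and Pstk, which turn serine on its tRNA into selenocysteine, had 1.15 and 1.29. Among factors that remove wrong amino acids or recycle peptidyl-tRNA, Aarsd1 had 2.02, Ptrh2 1.12, Dtd2 0.47, Prorsd1 0.45 and Dtd1 0.12, and 2 of these 5 lay above that median. All of the accessory factors named here were active.

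The contrast between compartments was also seen for another part of the translation machinery. Of 67 symbols of cytosolic ribosomal proteins (Rpl and Rps with a number, S6 kinases left out), 65 were active with a median of 6.40 RPKmM. All 71 symbols of mitochondrial ribosomal proteins (Mrpl and Mrps) were active with a median of 1. The cytosolic synthetases, at 3.27, lay below the cytosolic ribosomal proteins, and the mitochondrial synthetases, at 0.81, lay near the mitochondrial ribosomal proteins. These ribosomal lists were formed from symbols after the synthetase values were known.

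Structural class and compartment were separated next. The 18 class I enzymes had a median of 1.41 RPKmM and the 17 class II enzymes 1.58, a ratio of 0.89, with Eprs in neither list because it holds a catalytic domain of each class. Within the cytosolic genes, Gars and Kars included, the 9 class I enzymes had a median of 4.42 and the 10 class II enzymes 2.83, although the most active member, Nars, is of class II. Within the mitochondrial genes the medians were 0.94 for 9 class I and 0.77 for 7 class II enzymes. The class medians thus differed by less than those of the compartments.

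With earlier results of these data known, 13 of the 20 genes that serve the cytosol were listed as known targets of ATF4. They had a median of 4.28 RPKmM (quartiles 2.60 and 5.40, range 0.62 to 10.43) against 1.91 (range 1 to 5.31) for the 7 others (Dars, Farsa, Farsb, Hars, Kars, Qars and Rars). The ratio of 2.24 fell to 1.44 when geometric means with a pseudocount of 0.01 RPKmM replaced the medians. The cultures were not starved or stressed by design. Atf4 itself had 53.28, above 99.6% of active symbols, and the amino acid synthesis genes Asns, Psat1 and Phgdh had 1.35, 2.37 and 2.49. The stress-response genes Ddit3, Chac1 and Trib3 had 2.38, 1.26 and 0.83, and the kinase gene Eif2ak4, whose product GCN2 senses uncharged tRNA, had 1. Of these 8 genes 7 lay above the median of active symbols.

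Promoter letters were compared with these values. TGATGNAA was present in the promoters of 5 of the 13 cytosolic or shared members in the RefSeq table (Aars, Gars, Iars, Tars and Yars, shown above) and in 0 of the 14 mitochondrial members. Of the 10913 active symbols with a promoter there, 310 (2.84%) held it in at least 1 promoter, and the share over all RefSeq promoters was 3.97%. All 5 genes are on the ATF4 list, of which 8 members have a promoter in the table. Members with the match had a median activity of 2.79 RPKmM (range 1.15 to 7.88). The 8 cytosolic or shared members without it had 3.27 (range 1.25 to 5.40), so the groups overlapped widely. The ends of the cytosolic range, Nars (10.43) and Wars (0.62), had no promoter to search and are in neither group. A match says only that these letters are present, and its absence says nothing about the factor.

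Further motifs were searched on both strands, and 0 matches of different motifs overlapped in members. CACGTG, the E-box, was present in 4 of 13 cytosolic or shared members (Aars, Iars, Tars and Farsb) and in 1 of 14 mitochondrial members (Ears2), against 11.4% of active symbols, counted in the same way per symbol. Aars, Iars and Tars thus held both an E-box and TGATGNAA. The NRF1-type motif CGCANGCGC, named for a factor known for its action on genes of mitochondrial function, was found in 6 of 13 cytosolic or shared members and in 4 of 14 mitochondrial members (Iars2, Mars2, Vars2 and Wars2), against 14.5% of active symbols. The ETS motif CCGGAAG occurred in 5 of 13 and 4 of 14, against 18.7%, and CCAAT in 7 of 13 and 6 of 14, against 42.8%. TATAAA was present in 1 of 13 (Farsa) and 2 of 14 (Aars2 and Tars2), against 9.05%. These matches lay well upstream of the start site, at -239 to -234 in Farsa and -202 to -197 in Tars2. In Aars2 the match lay at -212 to -207 or -221 to -216, depending on its annotated start. The GC content of member promoters had a median of 57.3% (range 48.3 to 71.7%) beside 60.3% for active symbols, and the count of CpG was 17.5 beside 19.

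The YY1-type motif AAGATGGCG was present in 3 of 14 mitochondrial members (Aars2, Wars2 and Yars2), in each case just past the start site, and in Farsa alone among 13 cytosolic or shared members, where it lay upstream at -94 to -86. It was found in 3.29% of active symbols. The letters include ATG, and whether the match spans the translation start of these genes was not tested. Each line gives 29 bases in the direction of transcription with the match in capitals, which has the same orientation in all 3 mitochondrial genes. The windows are chr17:45506841-45506869 for Aars2, chr3:99141086-99141114 for Wars2 and chr16:16302971-16302999 for Yars2, all on the plus strand of GRCm38.p6.
Aars2: gcccggagctAAGATGGCGgtggcgttgg
Wars2: cgcccttctcAAGATGGCGctgttctctg
Yars2: cgtgtcccgcAAGATGGCGgcgcccatgc

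The promoter of Vars2 held 3 matches to the NRF1-type motif, the most among the 27 members with a promoter in the RefSeq table, within the last 60 bases before its start site, and the upstream pair overlap each other. These bases (chr17:35667593-35667652 of GRCm38.p6, minus strand) are shown in the direction of transcription with the matches in capitals.
Vars2: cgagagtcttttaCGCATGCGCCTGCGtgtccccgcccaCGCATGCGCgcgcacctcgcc

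**Figure D4:**
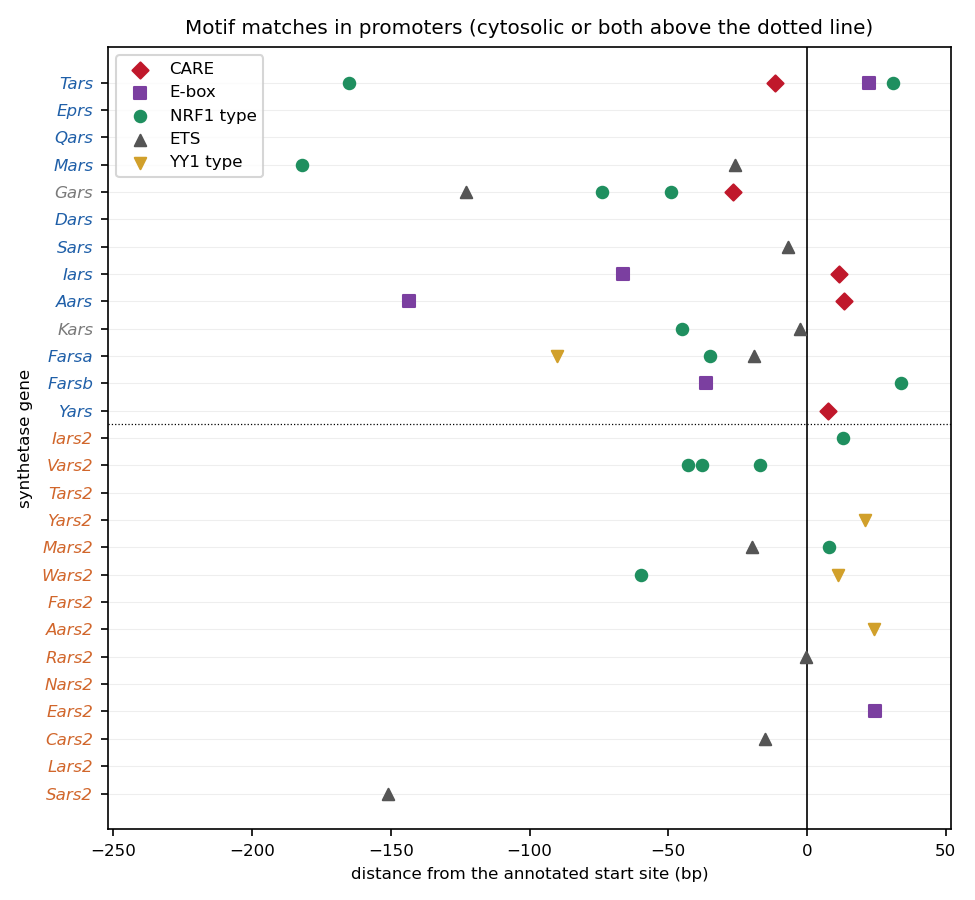
Positions of CARE, E-box, NRF1-type, ETS and YY1-type matches (distance in bp from the annotated start site, marked by the vertical line) in the promoters of 27 synthetase genes, with cytosolic and shared genes above the dotted line and mitochondrial genes below it, each ordered by activity; Aars2 is drawn from 1 of its 2 annotated starts, and CARE by the match nearest the start of each gene. CARE matches are seen in 5 genes above the line and in none of the 14 below it, and the YY1-type matches of Aars2, Wars2 and Yars2 lie just past the start.

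Gene length did not order the activities. Cytosolic genes had a median length of 25324 bp (7937 for Qars to 70902 for Farsb) and mitochondrial genes 22527 bp, but the latter ranged from 2882 bp for Mars2, which has 1 exon, to 420182 bp for Fars2. The rank correlation of length with activity was -0.085 over the 36 members, -0.25 within the 18 cytosolic and -0.19 within the 16 mitochondrial genes, all measured in the same pooled libraries. Only the part past the first kb is counted, which leaves 1882 bp in Mars2 and 3214 bp in Pars2, so these 2 activities rest on short stretches.

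**Figure D5:**
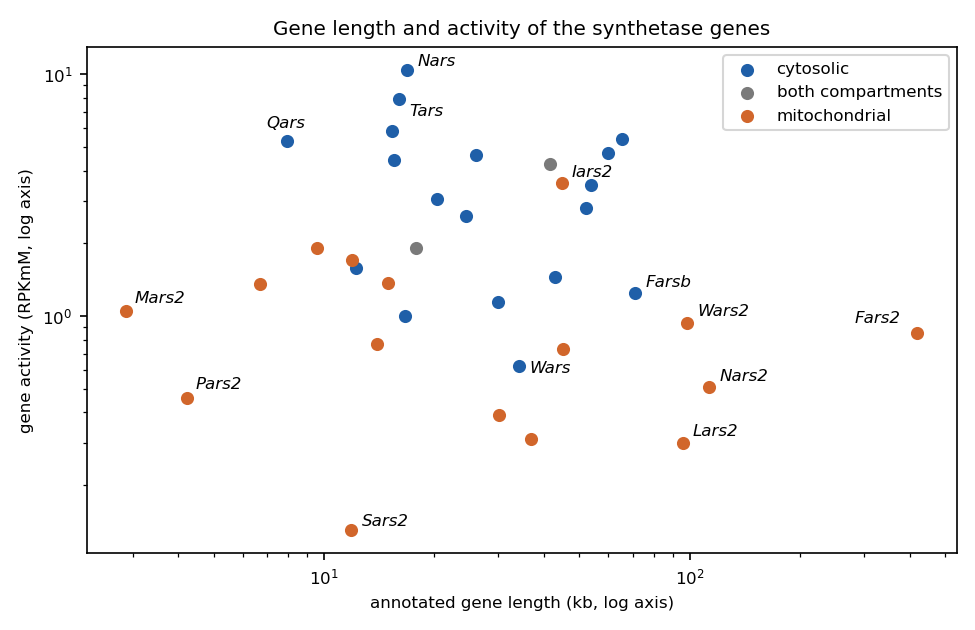
Annotated gene length (kb, log axis) against gene activity (RPKmM, log axis) for the 36 synthetase genes, coloured by compartment. Cytosolic points lie mostly above mitochondrial points of the same length, and neither group follows a slope, with rank correlations of -0.25 and -0.19.

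Neighbouring genes were examined because many synthetase genes start close to another gene. A protein-coding gene on the opposite strand started within 1 kb of the start of 10 of the 36 members (27.8%), against 15.1% of 12162 active symbols of protein-coding genes. Hars and Hars2 are each other's neighbour: they lie head to head (chr18:36926184-36942859, minus strand, and chr18:36942662-36952216, plus strand), and their annotated ends share 198 bases. Sars2 starts 171 bp from Mrps12, a mitochondrial ribosomal protein gene, which at 0.60 RPKmM was 4.62 times as active. Other such neighbours were Terf2ip (1.71) of Kars, D17H6S56E-5 (42.56) of Vars, Wdr25 (0.48) of Wars, S100pbp (1.49) of Yars, Ubfd1 (1.51) of Ears2, Lyrm4 (0.88) of Fars2 and Orc3 (1.77) of Rars2. D17H6S56E-5 starts 677 bp from the start of Vars, and both it and Ubfd1 overlap their member. Such overlapping genes are counted as head to head below.

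Among the 20 genes that serve the cytosol, the 5 with a head to head coding neighbour had a median of 1.15 RPKmM and the 15 others 4.28. Among mitochondrial genes the medians were 0.73 for 5 and 0.94 for 11. Hars, Wars and Yars, which are 3 of the 4 cytosolic genes below their mitochondrial partner, are among these 5; this was seen after the activities were known. The fourth, Iars, has no such neighbour.

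Reads of a neighbour on the same strand can be counted within a member. A gene of the same strand lay within a member or ended up to 5 kb upstream of it for 9 members. Small RNA genes within Iars, Wars and Yars and a noncoding gene upstream of Mars2 have no deposited activity. Among such neighbours with a deposited activity, Gm6793 was the most active at 24.94 RPKmM. It ends 2110 bp upstream of Kars (1.91), and its part in the value of Kars was not tested. Nol8 (1.31) ends 3085 bp upstream of Iars, and Gtf2h4 (0.34) ends 138 bp upstream of Vars2. Without these 9 members the medians were 3.95 for cytosolic and 0.75 for mitochondrial genes, a ratio of 5.27.

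Alternative transcripts changed few values. A single entry was listed for 32 members. The 3 entries of Wars had the same activity of 0.62 RPKmM, those of Farsb had 1.24 and 1.25, and those of Tars2 had 1.34 and 1.40. Dars differed most, with 4.13 for NM_145507 and 2.83 for NM_177445, a ratio of 1.46. Its 2 entries overlap and share reads, so they are not separate measurements.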

How the data were processed

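Nascent RNA of 2 replicate libraries of untreated C2C12 myoblasts was measured by GRO-seq. The authors aligned reads to mm9 with Bowtie2 (CASAVA 1.8 is also named in the submitters' processing notes), trimmed and realigned reads that failed, kept unique alignments, left out reads over rRNA or tRNA repeats, pooled both libraries and deposited activities in RPKmM, an RPKM over mappable bases. Entries that did not exceed gene deserts were deposited as Inactive. Pooling hides the spread between libraries, and unmappable or discarded bases can leave part of a gene uncounted.

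Symbols were summarised by the median of their active entries. Levels are described by counts, medians and ranks. Python 3.11.15, numpy 2.4.6, pandas 2.3.3, scipy 1.17.1 and matplotlib 3.10.9 were used, and the summary step was tested on simulated tables. All 36 members are named, with the listed accessory genes; some items are not reported here. Members and lists were chosen with earlier results of these data known. Sequences come from RefSeq (GRCm38.p6) and gene positions from GENCODE vM1 (NCBIM37, mm9). CARE windows follow the rule for named genes, while those of Aars2, Wars2, Yars2 and Vars2 were chosen after their matches were seen. Alternatives were other ways to summarise entries, lists and low values, and 3 choices of genes added after seeing the data.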

Additional observations from a re-analysis of the deposited data

How the results depend on the processing

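Over 60 alternative values, 59 stayed within 1.5 times the reported value and 0 changed direction. The exception was the ratio of ATF4 targets to other cytosolic genes, which was 2.24 from medians and 1.44 from geometric means with a pseudocount of 0.01 RPKmM. The ratio of cytosolic to mitochondrial medians ranged from 3.31, with every entry as a unit of its own, to 5.27, without members that have a neighbour on the same strand. Between 22 and 35 members lay above the median, which was taken anew for each alternative, so the cut itself moved. The lowest count came with only activities of at least 0.1 RPKmM, and the highest with inactive entries as 0. The number of amino acids with the cytosolic gene above the mitochondrial gene was 12 under each alternative run. No value per library was at hand, so leaving out a replicate and paired analyses were not possible, and the differences between genes have no replicate check. Protein identity of the pairs was not run. Values near 0.13 RPKmM are coarse, since the step of rounding is 0.01.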
